A study of Homo sapiens with 6 samples.

Results

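The genes described here are 9 tumour suppressors and diagnostic genes of glioblastoma, followed in U87 cells with and without rutaecarpine. They are CDKN2A, CDKN2B and MTAP of chromosome band 9p21, and NF1, RB1, TERT, ATRX, IDH1 and MGMT. The 9 rows were chosen by gene name from a table of 60671 genes. Each name matched 1 row. U87 is an established human glioblastoma cell line grown from a single tumour, so all libraries share that origin. RNA-Seq was done on 3 libraries from cells treated with 100 μM rutaecarpine for 48 h and 3 libraries from cells given 0.1% DMSO, the solvent, as control, both dosed without serum. Rutaecarpine is a plant alkaloid studied here as an agonist of the aryl hydrocarbon receptor (AhR), a ligand-activated transcription factor, and the study asked how it changes gene expression linked to migration of these cells. Levels are given as TPM, a share of all transcripts that is corrected for transcript length, so that genes can be compared with each other.

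Glioblastomas commonly lose the CDKN2A locus, whose products p16INK4a and p14ARF restrain cell division, the first of them by holding back CDK4 and CDK6. The neighbouring CDKN2B and MTAP are often lost with it. RB1, NF1 and ATRX are tumour suppressors of the cell cycle, of RAS signalling and of chromatin, TERT extends telomeres, IDH1 is mutated in a class of diffuse gliomas, and the DNA repair enzyme MGMT removes the damage made by temozolomide. U87 has been described as lacking the CDKN2A locus and as carrying a methylated MGMT promoter. Expression values cannot show a mutation, and DNA copy number and methylation were not analysed here.

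The 9 genes fell into 3 classes of level. IDH1, ATRX, NF1 and RB1 were at or above 1 TPM in every library, TERT was detected in every library but stayed below 1 TPM, and CDKN2A, CDKN2B, MTAP and MGMT never reached 0.1 TPM. In a bulk library, less RNA in every cell and RNA in fewer cells cannot be told apart. Among 19903 annotated protein-coding genes, 21.4% stayed below 0.1 TPM in every library and 61.3% reached 1 TPM in at least 3. Mean control levels were 123 ± 23.3 TPM for IDH1, 17.7 ± 9.69 TPM for ATRX, 14.0 ± 6.17 TPM for NF1, 9.96 ± 3.87 TPM for RB1 and 0.543 ± 0.133 TPM for TERT (SD, n = 3). The control ranges of IDH1 and ATRX did not overlap, nor did those of RB1 and TERT, or of TERT and CDKN2B. Those of ATRX and NF1, and of NF1 and RB1, overlapped through the low values of control replicate 3. In control replicates 1 and 2, ATRX was at 25.50 and 20.85 TPM, NF1 at 17.51 and 17.64 TPM and RB1 at 12.51 and 11.86 TPM. Within libraries, NF1 exceeded RB1 in 6 of 6 and ATRX exceeded NF1 in 5 of 6, with a tie in control replicate 3. By mean control level, IDH1 stood at percentile 92.2 of the 14377 genes tested for change, ATRX at 57.2, NF1 at 51.2 and RB1 at 42.5.

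**Figure D1:**
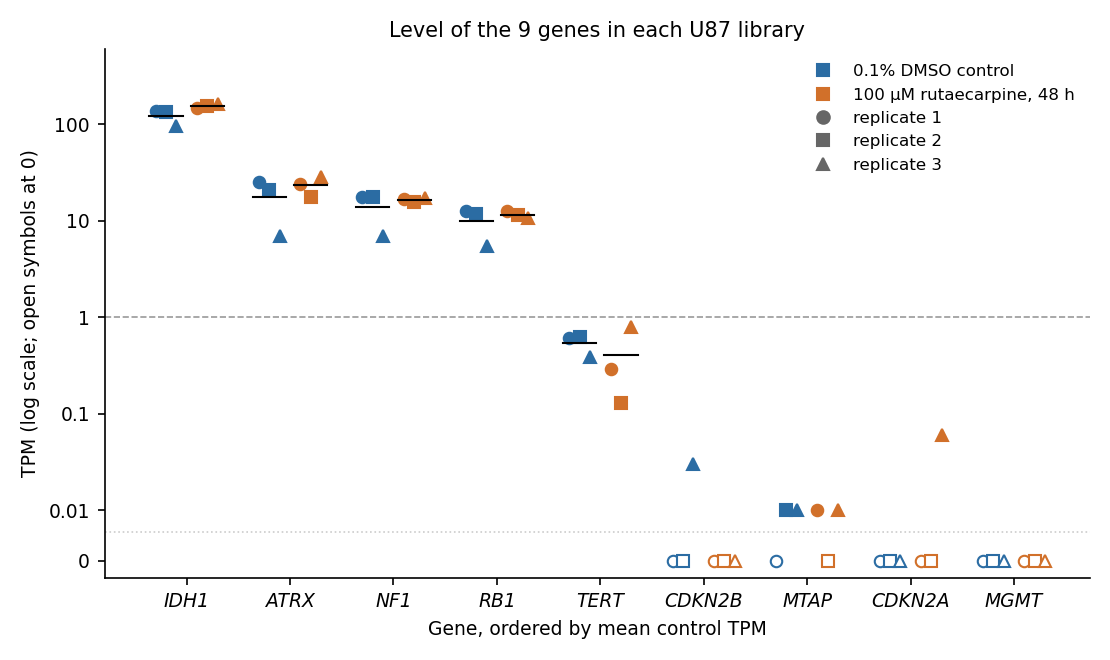
TPM (log scale) of the 9 genes in each library, with symbols for the replicate, blue for control and orange for rutaecarpine. Black lines mark group means of the genes above 0.1 TPM, open symbols mark values of 0, and the dashed line marks 1 TPM. IDH1 lies between 95.8 and 162 TPM, CDKN2A, CDKN2B, MTAP and MGMT stay at or below 0.06 TPM, and control replicate 3 is the lowest library for ATRX, NF1, RB1 and IDH1.

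One library stood apart from the other 5. It entered every main comparison below, and estimates moved to different degrees from gene to gene when it was left out. In control replicate 3, genes with long annotated transcripts were low against the other controls. With the tested genes in 10 groups by length, the median difference on the log2(TPM + 1) scale was 0.06 in the group of shortest transcripts, 0.11 in the next and -0.74 in the group of longest. Rutaecarpine replicate 2 had a smaller difference of the same kind against the other treated libraries, with a median of -0.32 in the group of longest transcripts. Of the marker genes used to check the cells, VIM (4430 to 7968 TPM), CD44 and FN1 were high. Of the glial and neural markers, NES lay between 12.29 and 21.02 TPM, GFAP between 3.48 and 5.41 TPM, and OLIG2 between 1.48 and 1.73 TPM in the controls and 3.07 and 4.11 TPM with rutaecarpine, while S100B (at most 0.25 TPM) and SOX2 (at most 0.06 TPM) were close to 0, as were the leukocyte marker PTPRC (at most 0.03 TPM) and AIF1 (listed at 0). CD68, a lysosomal protein also used to mark macrophages, was between 319 and 511 TPM. Of the epithelial markers, the keratin KRT8 lay between 7.94 and 12.65 TPM, while KRT18 (at most 1.19 TPM), CDH1 (at most 0.86 TPM) and EPCAM (at most 0.8 TPM) were low. The endothelial markers PECAM1 (at most 1.33 TPM), VWF (at most 0.87 TPM) and CDH5 (at most 0.06 TPM) were low too.

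CDKN2A and CDKN2B, which encode inhibitors of CDK4 and CDK6, had almost no reads assigned in either group. CDKN2A (ENSG00000147889, GRCh38 chr9:21967753-21995301, minus strand) was listed at 0 in all 3 control libraries and in rutaecarpine replicates 1 and 2, and at 0.06 TPM in rutaecarpine replicate 3. CDKN2B (ENSG00000147883, chr9:22002903-22009363, minus strand) was at 0.03 TPM in control replicate 3 and listed at 0 in the other 5 libraries. No order of the groups can be read from single values of this size, and neither gene passed the filter for testing. The antisense transcript CDKN2B-AS1 spans CDKN2B and overlaps only the 5′ end of CDKN2A. It was at 0.03 TPM in control replicate 1, at 0.12 TPM in rutaecarpine replicate 1 and at 0 elsewhere. MTAP (ENSG00000099810, chr9:21802543-21937651, plus strand), which recycles methylthioadenosine to methionine, was at 0.01 TPM in control replicates 2 and 3 and rutaecarpine replicates 1 and 3, and listed at 0 in the other 2 libraries. That value is the smallest above 0 in the table, where levels were rounded to 2 decimals. The 2 annotated MTAP pseudogenes were listed at 0 in all libraries.

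The near absence extended beyond these 3 genes. Of the 22 protein-coding neighbours that start within 1 Mb of the CDKN2A start, 0 had a mean control level of 1 TPM or more. These 22 include CDKN2B, MTAP and the 16 interferon genes described below, so few other genes are counted. For comparison, 14 of 21 protein-coding neighbours within 1 Mb reached that level around NF1, 7 of 10 around RB1, 10 of 20 around TERT, 6 of 8 around ATRX, 6 of 12 around IDH1 and 2 of 3 around MGMT. Within 3 Mb of CDKN2A, 6 of 104 genes of any type had a mean control level of at least 1 TPM, and 80 were listed at 0 in all 6 libraries. All 6 lay on the telomeric side. They were RRAGA, HAUS6, DENND4C, RPS6, SLC24A2 and an antisense transcript, AL391834.2, that starts next to RPS6. The nearest was SLC24A2 (chr9:19507452-19786928), a sodium, potassium and calcium exchanger, at 2.98, 3.05 and 1.02 TPM in the controls and 2.17, 1.43 and 1.99 TPM with rutaecarpine. On the centromeric side the nearest such gene was TUSC1 (chr9:25676389-25678440), 3.71 Mb from the CDKN2A start, at 10.66, 8.13 and 8.55 TPM in the controls and 9.99, 11.48 and 9.87 TPM with rutaecarpine. It was found by widening the window after the values had been seen.

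Between SLC24A2 and TUSC1 lay 5.89 Mb with 27 protein-coding genes, of which 19 were listed at 0 in every library. Of the 27, 16 were interferon genes, most of which cells keep silent unless infected, and their highest value was 0. The other 11 include genes that are widely expressed in other tissues. Among these, FOCAD, a focal adhesion protein, HACD4, an enzyme of very-long-chain fatty acid synthesis, and KLHL9, a subunit of a ubiquitin ligase, did not exceed 0.01 TPM. MLLT3, part of the super elongation complex, did not exceed 0.08 TPM. ELAVL2, a neuronal RNA-binding protein 1.72 Mb on the centromeric side, was the highest of the 27 at 0.35 TPM. From MLLT3 up to ELAVL2, 25 protein-coding genes in a row stayed below 0.1 TPM in every library, with CDKN2A, CDKN2B and MTAP among them. Of the other transcripts there, the processed pseudogene CLIC4P1 was the highest, listed at 0 in all controls and at 1.08, 0.23 and 0 TPM with rutaecarpine. RNA alone cannot tell a lost segment from a silent one.

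**Figure D2:**
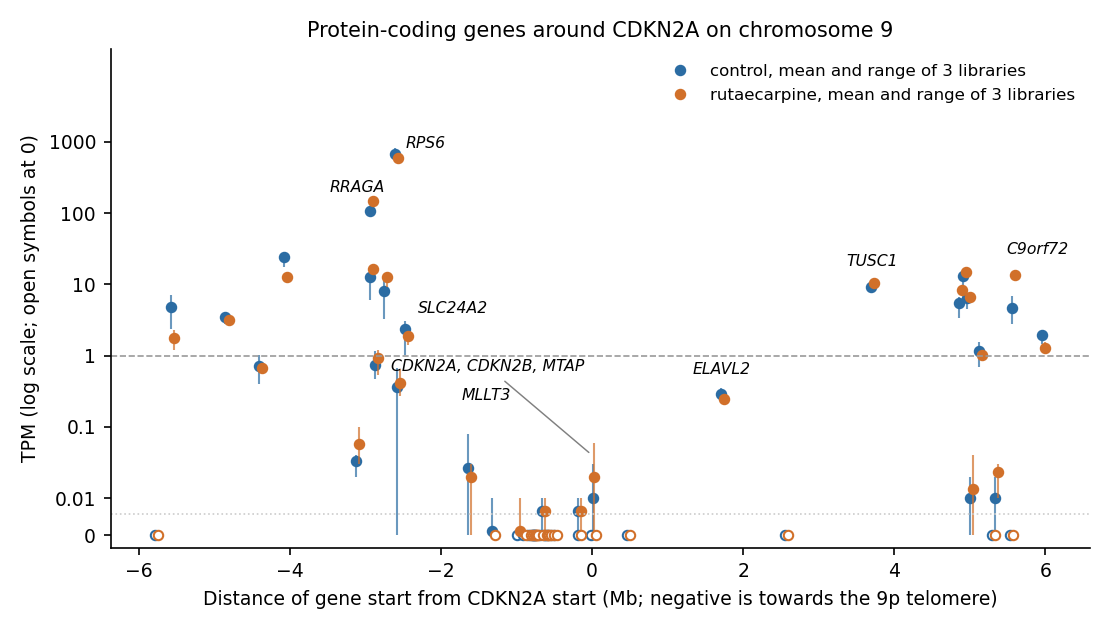
TPM (log scale) of protein-coding genes whose start lies within 6 Mb of the CDKN2A start, against distance in Mb, negative towards the telomere. Points are group means, lines the range of 3 libraries, open symbols values of 0, and the dashed line marks 1 TPM. No protein-coding gene reaches 1 TPM between SLC24A2 at -2.46 Mb and TUSC1 at 3.71 Mb.

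The RNA of partners of the CDKN2A, CDKN2B and MTAP products was read as lists of genes by role. Of 12 tested genes of the RB and cyclin D-CDK4/6 arm, 0 rose and 2 fell, with a median log2 fold change of -0.25 beside 0.08 over all 14377 tested genes, of which limma called 9.29% (4.6% higher and 4.68% lower). The other lists are read against the same shares. E2F1, a transcription factor that RB1 holds back, was at 49.58, 46.91 and 52.33 TPM in the controls and 24.76, 23.75 and 21.95 TPM with rutaecarpine. The groups did not overlap, and E2F1 fell by 1.05 on the log2 scale (SE 0.10, limma adjusted p = 0.00151). CDKN2D, a CDK4/6 inhibitor of the same INK4 family as CDKN2A and CDKN2B, fell from 36.1 ± 1.37 to 22.3 ± 1.56 TPM (SD, n = 3, limma adjusted p = 0.00891). Unlike its 9p21 relatives, it was well detected in every library, whereas CDKN2C, a further member, did not exceed 0.08 TPM. Without control replicate 3, 6 of the 12 were called, 1 higher and 5 lower, in a fit that called 18.5% of all tested genes.

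Of 6 tested genes of the ARF arm, which p14ARF acts on through MDM2, 1 rose and 0 fell. CDKN1A, which encodes the CDK inhibitor p21, was at 111, 121 and 116 TPM in the controls and 146, 149 and 160.0 TPM with rutaecarpine, a log2 fold change of 0.38 (SE 0.08, limma adjusted p = 0.0280). That call was lost in 5 of the 6 fits that left out 1 library, and with libraries centred on their medians. Of 14 tested genes of methionine salvage and MTAP dependency, 1 rose and 0 fell. ODC1, which makes putrescine and so stands at the head of the polyamine pathway that yields the MTAP substrate, rose from 37.64, 40.29 and 40.62 TPM to 109.56, 121.50 and 109.40 TPM (log2 fold change 1.50, SE 0.09, limma adjusted p = 0.00031). Without control replicate 3, 4 of the 14 were called, 1 higher and 3 lower, beside 18.5% of all tested genes in that fit. PRMT5, a methyltransferase on which MTAP-deleted cells are known to depend, was at 42.9 ± 8.29 TPM in the controls and 41.0 ± 3.32 TPM with rutaecarpine (limma adjusted p = 0.859).

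RB1 and NF1 were present at moderate levels in both groups. RB1 (ENSG00000139687, chr13:48303726-48599436, plus strand), the retinoblastoma protein that binds E2F factors, was at 12.51, 11.86 and 5.51 TPM in the controls and 12.55, 11.61 and 10.70 TPM with rutaecarpine. NF1 (ENSG00000196712, chr17:31094927-31382116, plus strand), neurofibromin, which switches RAS off, was at 17.51, 17.64 and 6.89 TPM in the controls and 16.91, 15.60 and 17.17 TPM with rutaecarpine. In both genes control replicate 3 was far below the other 5 libraries, which lay close together, and the groups overlapped. The log2 fold change was 0.27 for RB1 (95% interval -0.41 to 0.95, limma adjusted p = 0.596) and 0.33 for NF1 (-0.45 to 1.11, limma adjusted p = 0.579). Without control replicate 3 the values were -0.07 (-0.35 to 0.22) and -0.08 (-0.32 to 0.16), on the other side of 0 and within narrower intervals.

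Reads of genes that overlap NF1 may be shared with it, since the use of strand in counting is not given in the sources used here. EVI2A, in an NF1 intron on the other strand, was at 9.14 to 12.75 TPM, and AK4P1, a processed pseudogene on the NF1 strand, was at 6.44 to 18.38 TPM. Of 12 annotated NF1 pseudogenes elsewhere in the genome, 8 were listed at 0 and none exceeded 1.02 TPM. In the list of RAS negative regulators and the PI3K arm, 0 of 14 tested genes were called. SPRED1, which brings NF1 to RAS, had a log2 fold change of 0.48 (SE 0.27, limma adjusted p = 0.334), and PIK3CA one of 0.43 (SE 0.30, limma adjusted p = 0.423). EGFR, a receptor upstream of RAS that is often amplified in glioblastoma, was at 27.1 ± 11.7 TPM in the controls and 25.6 ± 5.99 TPM with rutaecarpine (SD, n = 3, limma adjusted p = 0.999).

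TERT (ENSG00000164362, chr5:1253147-1295069, minus strand), the catalytic subunit of telomerase, was at 0.61, 0.63 and 0.39 TPM in the controls and 0.29, 0.13 and 0.80 TPM with rutaecarpine. The highest and the lowest value both came from the treated group, so the groups overlapped throughout. With no filter on low levels the log2 fold change was -0.16 (95% interval -0.62 to 0.31, limma adjusted p = 0.713). The neighbourhood of TERT was active, with 10 of 20 protein-coding genes within 1 Mb at 1 TPM or more. TERC, the telomerase RNA, whose mature form has no poly(A) tail, did not exceed 0.24 TPM.

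ATRX (ENSG00000085224, chrX:77504878-77786233, minus strand), a chromatin remodeller that places histone H3.3 at telomeres together with DAXX, was at 25.50, 20.85 and 6.89 TPM in the controls and 23.94, 17.46 and 28.42 TPM with rutaecarpine. It varied most of the 4 tested genes, with a coefficient of variation of 54.6% in the controls and 23.7% in the treated libraries. Its log2 fold change of 0.52 (95% interval -0.53 to 1.58, limma adjusted p = 0.515) became -0.01 (-0.48 to 0.45) without control replicate 3. DAXX stayed between 63.54 and 68.48 TPM in all 6 libraries (limma adjusted p = 0.954). Of 15 tested genes of telomerase, shelterin and ATRX partners, 1 rose and 0 fell, with a median of 0.06. TERF2IP, the shelterin subunit RAP1, rose from 44.7 ± 6.96 to 72.8 ± 3.47 TPM (SD, n = 3, log2 fold change 0.70, limma adjusted p = 0.0184), and was called in 3 of the 6 fits that left out 1 library.

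IDH1 was the gene of the 9 whose groups did not overlap. IDH1 (ENSG00000138413, chr2:208236227-208266074, minus strand), the cytosolic enzyme that makes 2-oxoglutarate and NADPH from isocitrate, was at 137.42, 134.92 and 95.81 TPM in the controls and 148.33, 156.16 and 162.31 TPM with rutaecarpine. Every treated library was above every control library, which was so for 19.3% of all tested genes. Mean levels were 1.27 times higher with rutaecarpine, and 1.14 times higher without control replicate 3. The log2 fold change was 0.36 (95% interval 0.01 to 0.70), with an unadjusted p of 0.0437 and a limma adjusted p of 0.192. It therefore did not pass the test. The estimate stayed positive in all 17 alternative fits, from 0.19 to 0.45, with limma adjusted p from 0.0451 to 0.439. Its 95% interval included 0 in several of them, such as the replicate block (-0.03 to 0.75) and the fit without rutaecarpine replicate 3 (-0.11 to 0.76). IDH1 passed the threshold in 1 of the 17, a correction for length and GC content without control replicate 3. That fit was added after the data had been seen and called 24.8% of the genes tested. IDH1-AS1, an antisense transcript overlapping IDH1, was between 0.56 and 1.57 TPM.

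AhR binds DNA at a core of GCGTG, so the 250 bases before each annotated RefSeq start were searched for GCGTG on both strands (read as CACGC on the other). The paper searched longer stretches upstream of coding sequences for longer sequences that contain this core, so its counts are not comparable. Not every core marked below fits those longer sequences. Windows were found for 8 of the 9 genes, all but ATRX, and the RB1 window belongs to an internal start. The core was in 4 of the 10 windows of these genes (CDKN2A, IDH1 and MGMT) and in 32.2% of all 35116 windows. IDH1 has 2 annotated starts. The upstream window is shown because it held 3 cores, in capitals, the most of the 10 windows. Over all windows 3.16% held 3 or more, a share that allows neither for this choice nor for GC content. The downstream window held none. Both are of GRCh38.p14, given 5′ to 3′ on the minus strand, and the starts in use in U87 were not measured.
IDH1 upstream window, chr2:208255072-208255321: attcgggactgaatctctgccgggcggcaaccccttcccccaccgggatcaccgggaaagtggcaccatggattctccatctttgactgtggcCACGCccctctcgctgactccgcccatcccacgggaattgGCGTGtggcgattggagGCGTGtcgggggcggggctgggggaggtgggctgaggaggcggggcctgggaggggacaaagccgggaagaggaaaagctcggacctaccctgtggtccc
IDH1 downstream window, chr2:208254459-208254708: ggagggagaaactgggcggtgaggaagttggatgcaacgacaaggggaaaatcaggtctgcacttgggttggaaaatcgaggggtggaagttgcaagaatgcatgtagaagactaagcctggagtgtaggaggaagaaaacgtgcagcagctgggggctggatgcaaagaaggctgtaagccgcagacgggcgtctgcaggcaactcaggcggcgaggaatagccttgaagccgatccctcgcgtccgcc
A match is a description of letters and not evidence of binding.

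IDH2, the mitochondrial counterpart of IDH1, fell with rutaecarpine. It was at 47.47, 49.43 and 56.89 TPM in the controls and 28.11, 30.87 and 30.79 TPM with rutaecarpine, and fell by 0.75 on the log2 scale (SE 0.11, limma adjusted p = 0.00662). Within each library IDH1 exceeded IDH2 by 2.89, 2.73 and 1.68 times in the controls and by 5.28, 5.06 and 5.27 times with rutaecarpine. This ratio does not depend on how libraries are scaled against each other and was computed after both genes had been seen. The difference in log2 ratio was 1.13, or 0.89 without control replicate 3. An exact two-sided permutation test gave p = 0.1, the smallest that 3 against 3 libraries allow. That outcome was fixed beforehand and adds no support, because the groups of IDH1 and of IDH2 were already fully apart in opposite directions. Of 12 tested isocitrate dehydrogenases and 2-oxoglutarate enzymes, 2 rose and 1 fell, where 9.29% of all tested genes were called. ACO1, the cytosolic aconitase that makes the substrate of IDH1 and also binds iron-responsive elements, rose from 75.1 ± 12.3 to 124 ± 6.80 TPM (log2 fold change 0.72, limma adjusted p = 0.0179). KDM4A, a histone demethylase that uses 2-oxoglutarate, rose from 18.9 ± 2.34 to 28.4 ± 1.94 TPM (log2 fold change 0.57, limma adjusted p = 0.0403). Of the 6 fits that left out 1 library, IDH2 was called in 6, ACO1 in 3 and KDM4A in 1.

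MGMT (ENSG00000170430, chr10:129467184-129768007, plus strand), the enzyme that repairs O6-methylguanine and so protects cells from temozolomide, was listed at 0 in all 6 libraries. Of the 9 genes it alone had no value above 0, which 14.1% of the protein-coding genes shared. Unlike 9p21, the neighbourhood was not empty. GLRX3, the nearest highly expressed gene, was at 79.03 to 104.21 TPM. The MGMT promoter is known for its CpG island, and the 250 bases before the RefSeq start are shown with each CpG in capitals (GRCh38.p14, plus strand, 5′ to 3′). They held 36 CpG dinucleotides, above 95.1% of all windows, whose median was 11.
MGMT window, chr10:129466991-129467240: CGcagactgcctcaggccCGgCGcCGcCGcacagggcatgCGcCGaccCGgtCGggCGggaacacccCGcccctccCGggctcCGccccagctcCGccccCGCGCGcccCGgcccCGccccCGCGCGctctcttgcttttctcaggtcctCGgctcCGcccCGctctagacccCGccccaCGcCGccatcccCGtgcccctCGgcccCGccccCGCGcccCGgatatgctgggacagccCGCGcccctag
Methylation of these sites was not measured in this series. Of 11 tested genes of alkylation damage and mismatch repair, 1 rose and 1 fell, where 9.29% of all tested genes were called. PARP1, a sensor of DNA strand breaks, fell from 57.63, 60.14 and 45.01 TPM to 33.89, 30.59 and 35.06 TPM (log2 fold change -0.68, limma adjusted p = 0.0231). ALKBH3, a dioxygenase that reverses alkylation damage of DNA, rose from 32.7 ± 0.97 to 43.3 ± 1.23 TPM (log2 fold change 0.40, limma adjusted p = 0.0374). Both calls were lost in 5 of the 6 fits that left out 1 library and made in the fit without control replicate 3, where 5 of the 11 and 18.5% of all tested genes were called.

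**Figure D3:**
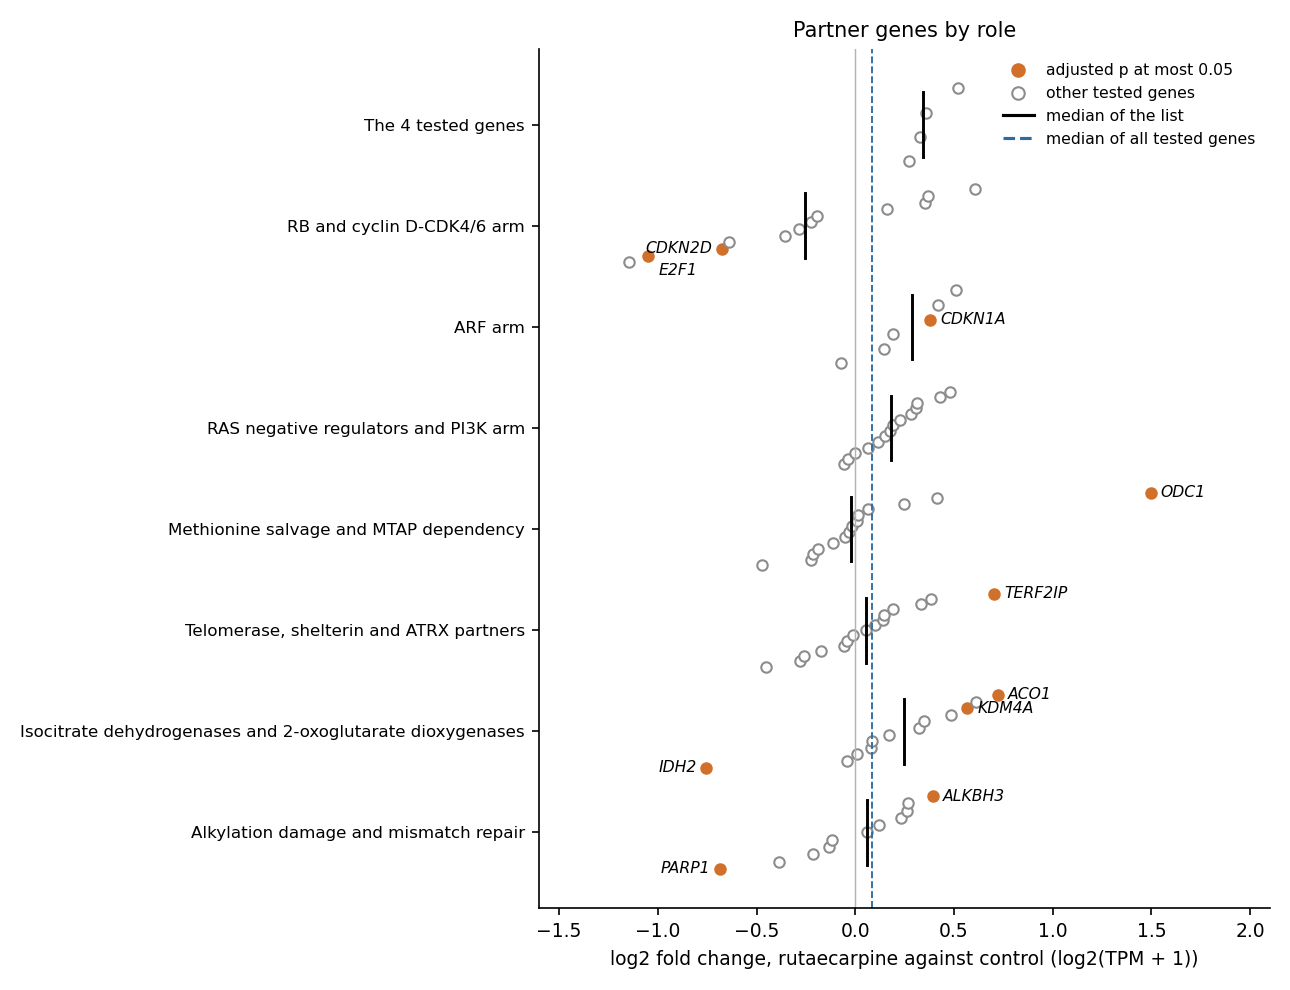
The log2 fold change (log2(TPM + 1) scale) of each tested partner gene, by role, with filled points for limma adjusted p at most 0.05. Black bars mark list medians and the dashed line the median of all tested genes, 0.08. E2F1, CDKN2D, IDH2 and PARP1 lie below 0 among the filled points, and ODC1 at 1.50 is the farthest above.

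Of the 9 genes, 4 passed the filter for testing and 0 of these 4 were called at an adjusted p of 0.05 by limma, where 9.29% of all 14377 tested genes were called, 4.6% higher and 4.68% lower. At an unadjusted p under 0.05 the count was 1 of 4, IDH1, beside 24.4% of all tested genes. With the threshold of the study, an absolute log2 fold change above 1 in addition, the count was 0 of 4, beside 3.51% of all. The median log2 fold change of the 4 was 0.34 with all libraries and -0.04 without control replicate 3, beside 0.08 and -0.01 over all tested genes. Over the 7 partner lists, 6 of 84 tested genes rose and 4 fell, together 11.9% beside 9.29% of all tested genes. Without control replicate 3, 21 of the 84 were called, beside 18.5% of all tested genes.

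**Figure D4:**
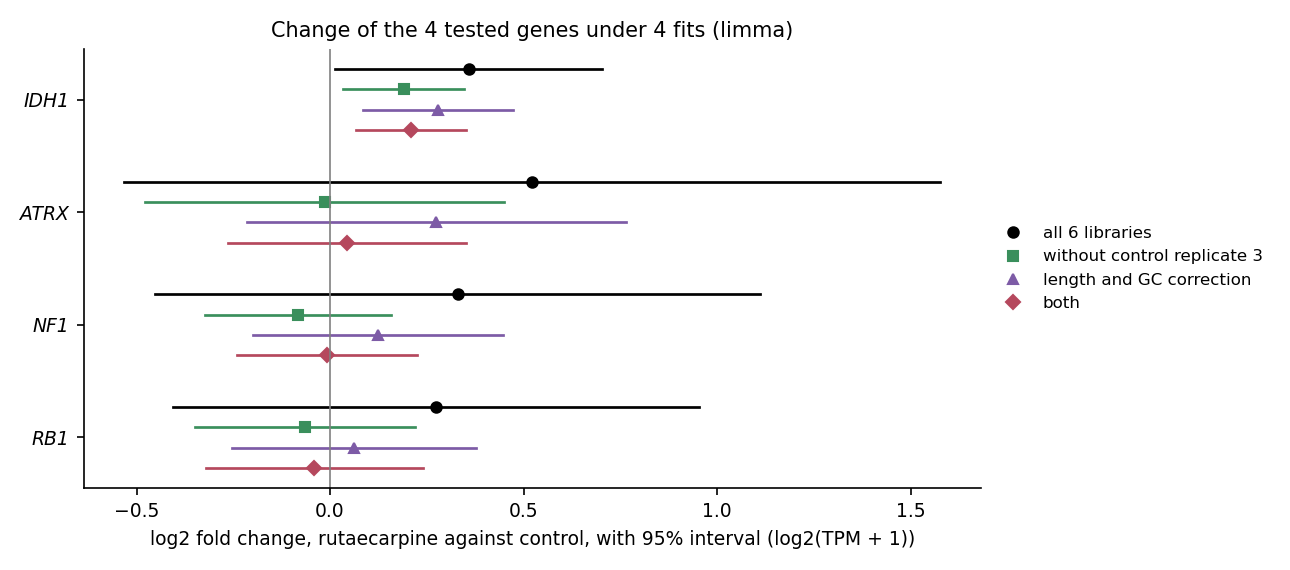
Log2 fold change with its 95% interval for IDH1, ATRX, NF1 and RB1, with all libraries, without control replicate 3, after correction for transcript length and GC content, and with both. The intervals of IDH1 lie above 0 in each of these fits, while the values of NF1 and RB1 move from 0.33 and 0.27 to -0.08 and -0.07 when control replicate 3 is left out. In several alternatives not drawn here, the interval of IDH1 included 0.

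The low values of control replicate 3 were compared with transcript length. Its level relative to the mean of the other controls was 0.297 for ATRX, 0.392 for NF1, 0.452 for RB1 and 0.704 for IDH1. The longest annotated transcripts of these genes are 11167, 12425, 4793 and 2441 bases. On the log2(TPM + 1) scale the differences were -1.61, -1.24, -1.02 and -0.50, each lower than the median of genes of similar length. Whether length is behind the low values was not tested.

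**Figure D5:**
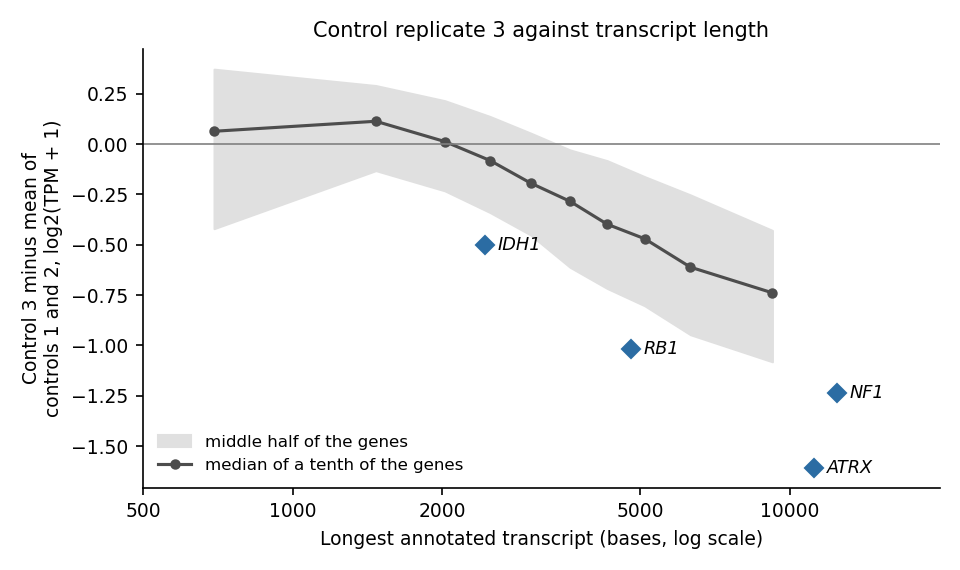
Difference of control replicate 3 from the mean of control replicates 1 and 2 on the log2(TPM + 1) scale against the longest annotated transcript (log scale). The line joins medians of 10 groups of genes by length, the band spans their middle quartiles, and diamonds are the 4 tested genes. The medians run from 0.06 in the shortest group through 0.11 in the next to -0.74 in the longest, and the diamonds lie below them.

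Pearson's r of log2(TPM + 1) was 0.98 between NF1 and RB1, and 0.96 between NF1 and ATRX. The other 4 pairs of the tested genes lay between 0.86 and 0.91. Without control replicate 3, r was 0.16 between NF1 and RB1, 0.67 between NF1 and ATRX, 0.11 between ATRX and IDH1, -0.17 between RB1 and ATRX, -0.60 between NF1 and IDH1 and -0.70 between RB1 and IDH1. The high r in every pair thus rested on that library, though NF1 and ATRX kept a positive r of 0.67. The genes most like each of them in pattern had r above 0.99, among all tested genes. They were SMARCA5-AS1 and RELCH for NF1, ZNF548 and CDCA2 for RB1, ZZZ3 and FNBP4 for ATRX, and CAAP1 and SCOC for IDH1. These correlations over 6 libraries share the same control replicate and are descriptions only.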

How the data were processed

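RNA was extracted from U87 cells, fragmented and sequenced on an Illumina NovaSeq instrument. The authors quantified genes with RSEM and deposited TPM values, rounded to 2 decimals, in 1 table for all libraries. The submitters' processing notes name GRCh38.p13, RSEM, DESeq2 and edgeR, without versions. TPM keeps no read depth, so counting error is unknown. Columns were matched to groups through the sample labels. Of 60671 genes, 58453 matched GENCODE release 29, from which positions and transcript lengths were taken. Genes with at least 1 TPM in at least 3 libraries (14377) were tested on log2(TPM + 1) with limma 3.58.1 (R 4.3.3) and a mean-variance trend, two-sided, with Benjamini-Hochberg adjustment over all of them. On simulated data with 200 changed genes, the fit recovered 32.6% of those changed by 0.5 on the log2 scale. It recovered 71.6% of those changed by 1 and 94.4% of those changed by 2, with 4.4 false calls on average. An uncalled gene may therefore still have changed. The simulated noise left out control replicate 3, so recovery with the spread of that library was not measured. Fold changes on this scale understate those of low genes. Nothing in the labels says that libraries are separate cultures, so p-values measure the spread between libraries, which may be technical. The 9 genes, the role lists and the tests were chosen with earlier results of these data known. Named partners were those with adjusted p at most 0.05 in each list, otherwise the 2 with the largest change, with EGFR, the nearest genes at 1 TPM beside CDKN2A, and the 2 genes most alike to each tested gene. PRMT5, DAXX, CDKN2C, TERC, other genes of 9p and the genes overlapping or neighbouring the 9 were named after their values were seen. Some genes of the lists are not reported here. Alternatives covered scaling, trend, filter, pseudocount, replicate block, library weights, length and GC content, and leaving out each library.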

Additional observations from a re-analysis of the deposited data

How the results depend on the processing

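IDH1 kept its direction in all 17 alternatives. NF1 and RB1 kept theirs in 14 of 17 and ATRX in 16. With library weights the log2 fold change was -0.027 for NF1 and -0.011 for RB1. With the length and GC correction without control replicate 3, chosen after seeing the data, it was -0.0081 for NF1 and -0.041 for RB1. IDH1 passed there at 0.21, so 1 of the 4 tested genes was called, beside 24.8% of all genes tested in that fit. Leaving out 1 library at a time gave log2 fold changes of -0.082 to 0.54 for NF1, -0.065 to 0.46 for RB1, -0.014 to 0.86 for ATRX and 0.19 to 0.45 for IDH1. The low ends came from the fit without control replicate 3. In each of these fits 0 of the 4 were called, beside 539 to 2666 of the 14377 tested genes.

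Over all genes, 1335 were called, and 539 to 2666 when 1 library was left out, 428 with the replicate block, 3962 with library weights, 2762 with the length and GC correction and 3543 with that correction without control replicate 3. Genes that also passed the fold threshold numbered 505 (289 higher and 216 lower), 318 with the replicate block, 353 to 610 when 1 library was left out and 546 (251 higher and 295 lower) with median centring. Same-numbered libraries had correlations of deviations from their group means of 0.12, -0.27 and -0.22. These deviations include the shift of control replicate 3, so they cannot decide whether the numbers pair libraries. The block changed no call of the 9 genes. With median centring, 4 genes of the RB arm, 0 of the ARF arm and 1 of the alkylation list were called. Leaving out 1 library gave 1 to 6 for the RB arm, 0 to 1 for the ARF arm, 0 for the RAS list, 1 to 4 for methionine salvage, 0 to 2 for the telomere list, 1 to 3 for the isocitrate dehydrogenase list and 0 to 5 for the alkylation list. Along 9p21, 11 genes reached 0.1 TPM, 0 reached 1 TPM within 1 Mb, and 17 did within 6 Mb, a window chosen after seeing the data. Where a value moved, the cause was not tested.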

Other observations

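Of the genes that flank the 9p stretch from SLC24A2 to TUSC1, chosen after their values were seen, RRAGA, a Rag GTPase of nutrient sensing on the telomeric side of CDKN2A, was at 107.73, 110.09 and 103.43 TPM in the controls and 149.63, 152.24 and 146.22 TPM with rutaecarpine. The groups did not overlap, and RRAGA rose by a log2 fold change of 0.48 (SE 0.07, limma adjusted p = 0.00835). C9orf72, a regulator of autophagy and lysosomes on the centromeric side, was at 6.78, 4.31 and 2.74 TPM in the controls and 15.66, 11.57 and 13.21 TPM with rutaecarpine. It rose by a log2 fold change of 1.42 (SE 0.28, limma adjusted p = 0.0232). ADAMTSL1, a secreted matrix protein on the telomeric side, fell from 24.0 ± 5.43 to 12.6 ± 0.755 TPM (SD, n = 3, log2 fold change -0.85, limma adjusted p = 0.0328). Within 6 Mb of CDKN2A, 15 protein-coding genes had a mean control level of at least 1 TPM. Of these 15, only RRAGA, C9orf72 and ADAMTSL1 were called, where 9.29% of all tested genes were called.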
